A study of Mus musculus with 8 samples.

Results

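Expression of 10 genes that send or tune Wnt signals, of 52636 genes in the count tables, was followed in livers of mice with diet-induced steatohepatitis. They were chosen by symbol and comprise the Wnt ligands Wnt2, Wnt4, Wnt5a, Wnt9a and Wnt9b, the R-spondins Rspo1 and Rspo3, the ubiquitin ligases Znrf3 and Rnf43, and the R-spondin receptor Lgr4. Male, wild-type C57BL/6J mice were injected at 7 weeks of age with an adeno-associated virus, AAV8, that carried either GFP (AAV8-GFP, n = 4) or human AGXT (AAV8-AGXT, n = 4). Both transgenes were driven by TBG, a promoter active in hepatocytes. From 8 weeks of age all mice received the MASH diet, rich in fat, fructose and cholesterol, for 24 weeks, so both groups carry the virus and the disease, and no chow-fed or uninjected liver was compared here. Bulk liver RNA was sequenced as 1 library per mouse, and mice are named by their animal numbers, which are 303, 311, 314 and 315 in the AAV8-GFP group and 308, 309, 316 and 319 in the AAV8-AGXT group.

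Wnt ligands are lipid-modified secreted proteins that bind a Frizzled receptor together with LRP5 or LRP6, and in the canonical branch this spares β-catenin from destruction. ZNRF3 and RNF43 remove Frizzled from the cell surface, and R-spondins bound to LGR4 or LGR5 take these ligases away, so R-spondins amplify a Wnt signal. In the healthy liver, endothelial cells of the central vein are known as the source of Wnt2, Wnt9b and Rspo3, and the signal keeps neighbouring hepatocytes in a pericentral programme that includes glutamine synthesis and cytochrome P450 enzymes. Wnt4, Wnt5a and Wnt9a are made by stellate, ductular, immune or endothelial cells, and Wnt5a is best known for signals that do not pass through β-catenin.

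Each library held 17095433 to 28780140 read pairs assigned to genes. Expression is given as counts-per-million (CPM) scaled by TMM, a factor that corrects for differences in RNA composition. Mouse 308 stood somewhat apart, with 56.3% of its tallied read pairs on genes against at least 62.4% in the other mice. The mean level of mouse Agxt was 164 ± 15.8 CPM under AAV8-GFP and 305 ± 98.3 CPM under AAV8-AGXT (SD, n = 4 each). Its groups did not overlap (log2 fold change 0.90, adjusted p = 0.0489, quasi-likelihood test of edgeR), although reads of the human transgene counted on the mouse gene cannot be told apart from those of the gene itself. Of the lists of cell type markers used here, that of hepatocytes had the highest summed level in every library. Over its 6 genes the sum was 43100 to 52200 CPM in the AAV8-GFP group and 53000 to 74000 CPM in the AAV8-AGXT group. Cps1 of the urea cycle, 1 of the 6, rose (log2 fold change 0.96, adjusted p = 0.0279 from edgeR).

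None of the 9 members that could be tested passed an adjusted p of 0.05. Of the 15248 genes tested in all, 4.35% passed it, 2.45% higher and 1.90% lower in AAV8-AGXT mice. At an unadjusted p under 0.05, 6 of the 9 members were reached by edgeR, 3 of them lower and 3 higher in AAV8-AGXT mice. Of all genes tested, 12.6% were reached in the lower direction and a further 13.5% in the higher. The number of members in either direction was 3 without mouse 303, 311 or 308 and with total counts as scaling, and 4 without mouse 314. The 6 were Wnt9a, Wnt5a and Wnt4 with lower means in AAV8-AGXT mice and Znrf3, Wnt2 and Lgr4 with higher means. DESeq2's Wald test passed 1 member, Wnt9a, and limma-voom passed none, and DESeq2 passed 6.93% of all genes as lower. Rspo1 did not pass the filter on low counts. The log2 fold change was negative for 3 and positive for 6 of the 9, and 47.7% of all genes tested had a negative one. The median was 0.38 over the 9 tested members and 0.018 over all genes tested.

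**Figure D1:**
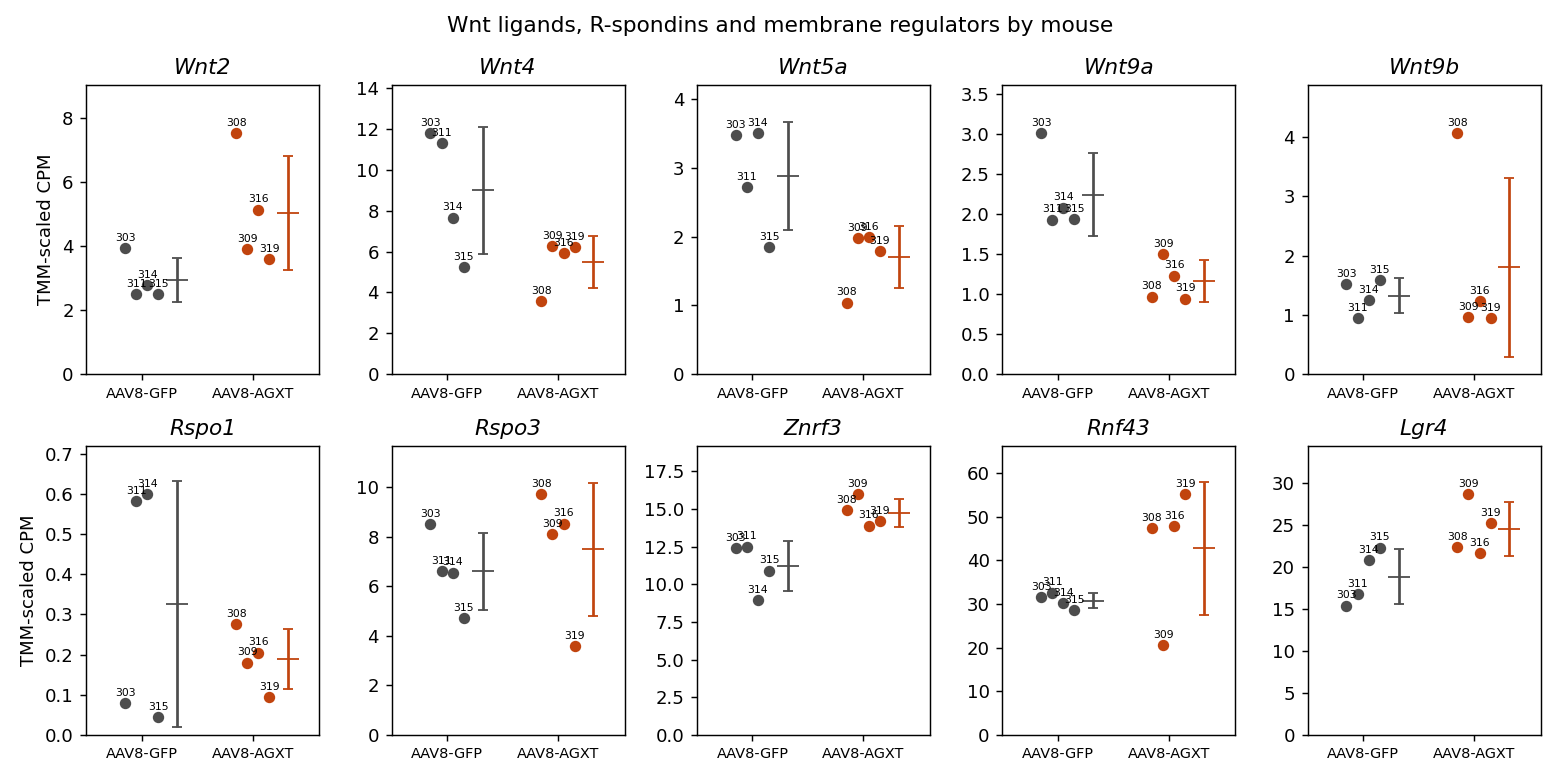
TMM-scaled CPM (y axes, from 0, a separate scale for each gene) of the 10 members in each of the 8 mice, labelled by animal number, with the group mean and SD beside the points. The groups are separate only for Wnt9a and Znrf3, and mouse 308 lies at the edge of its group for Wnt2, Wnt4, Wnt5a and Wnt9b.

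Wnt9a had the smallest p-value of the 10 genes. Wnt9a (ENSMUSG00000000126) lies on chromosome 11 from 59306928 to 59333552 (GRCm38, plus strand). Wnt9b (ENSMUSG00000018486), its closest relative among the Wnt genes, lies on the same chromosome from 103727364 to 103749821 on the minus strand. The 250 bases before the RefSeq start site of each (RefSeq, GRCm38.p6) are shown because these close relatives are the members with the smallest p and with the widest interval, Wnt9a with separate groups and Wnt9b with the largest standard error of the 9 members. The windows are chr11:59306680-59306929 for Wnt9a and chr11:103749822-103750071 for Wnt9b, written 5′ to 3′ on the strand of the gene, with GC boxes (GGGCGG or its reverse complement CCGCCC) in capitals.
Wnt9a: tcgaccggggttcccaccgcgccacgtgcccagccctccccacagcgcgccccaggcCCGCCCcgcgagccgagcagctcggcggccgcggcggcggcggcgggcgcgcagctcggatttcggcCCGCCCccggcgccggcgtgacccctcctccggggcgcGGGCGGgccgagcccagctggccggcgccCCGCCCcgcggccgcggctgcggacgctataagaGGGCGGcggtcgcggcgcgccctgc
Wnt9b: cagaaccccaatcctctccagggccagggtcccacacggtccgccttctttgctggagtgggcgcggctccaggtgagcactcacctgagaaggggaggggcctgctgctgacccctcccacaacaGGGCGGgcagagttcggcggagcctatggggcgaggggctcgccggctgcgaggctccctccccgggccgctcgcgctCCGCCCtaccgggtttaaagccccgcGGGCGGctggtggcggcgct
The Wnt9a window held 5 GC boxes at a GC content of 84.4%, and the Wnt9b window held 3 at a GC content of 72%. The Wnt4 window held more than either, 8 at 85.2%, and the Wnt2 window held 1 at 63.6%. None was in the windows of Rspo1, Rnf43 and Lgr4. Of 32851 promoter windows of the same length, 32.7% held at least 1 GC box and 8.47% held 3 or more, and the median GC content was 52.4%. Cores bound by TCF and LEF factors (CTTTGAA and CTTTGAT as well as CTTTGTA and CTTTGTT, on either strand) were in none of the 8 windows of the 7 members with an entry, Wnt9a and Wnt9b included. They were in 14.8% of all windows. Wnt5a, Rspo3 and Znrf3 had no entry.

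In the AAV8-GFP mice Wnt9a was at 3.01 CPM in 303, 1.93 in 311, 2.08 in 314 and 1.94 in 315. In the AAV8-AGXT mice it was at 0.967 CPM in 308, 1.5 in 309, 1.23 in 316 and 0.944 in 319. Every AAV8-AGXT mouse was thus below every AAV8-GFP mouse, as was the case for 7.63% of all genes tested. The means were 2.24 ± 0.517 and 1.16 ± 0.262 CPM (SD, n = 4 each), for a log2 fold change of -0.94 (standard error 0.26, 95% interval -1.53 to -0.36, adjusted p = 0.0699 from edgeR). The adjusted p was 0.021 by DESeq2, and with each mouse left out in turn it lay between 0.0615 and 0.165 by edgeR. No 31-base word of the Wnt9a or Wnt9b transcripts occurs in a transcript of another gene of GENCODE M21, so their reads cannot be shared between them at that length.

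Wnt4 (ENSMUSG00000036856, chromosome 4 from 137277489 to 137299726, plus strand), a ligand known in the liver from activated stellate cells and from ducts, had the widest range among the AAV8-GFP mice of the ligands with lower means. It was at 11.8 CPM in 303, 11.3 in 311, 7.66 in 314 and 5.25 in 315, and in AAV8-AGXT mice at 3.59 in 308, 6.25 in 309, 5.91 in 316 and 6.23 in 319. Mouse 315 lay below 3 of the 4 AAV8-AGXT mice, so the groups overlapped. The means were 8.98 ± 3.09 and 5.49 ± 1.28 CPM (SD, n = 4 each), for a log2 fold change of -0.71 (standard error 0.28, 95% interval -1.33 to -0.09, adjusted p = 0.145 from edgeR). Part of the Wnt4 transcript, 6.62% of its 31-base words, occurs in other genes, where reads aligned at several places go uncounted.

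Wnt5a (ENSMUSG00000021994, chromosome 14 from 28504750 to 28527448, plus strand), the main non-canonical ligand, was at 3.48 CPM in 303, 2.72 in 311, 3.51 in 314 and 1.85 in 315. The AAV8-AGXT mice were at 1.04 in 308, 1.98 in 309, 2 in 316 and 1.79 in 319. Mouse 315 lay below 309 and 316, so the groups overlapped, and mice 303, 311 and 314 were above the whole AAV8-AGXT group. The log2 fold change was -0.75 (standard error 0.29, 95% interval -1.39 to -0.11, adjusted p = 0.137 from edgeR), from means of 2.89 ± 0.780 and 1.70 ± 0.455 CPM (SD, n = 4 each). An antisense gene, Gm2670, overlaps Wnt5a and had at most 6 counts in any mouse, and the strand option of the counting is not given in the sources used here. Within the groups the deviations of Wnt4 and Wnt5a from their group means correlated at 0.80 over the 8 mice, a description over libraries that also share depth and tissue composition.

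Marker levels of other cell types stood beside these 3 ligands as follows. Of 10 stellate markers tested, Acta2, the smooth muscle actin of activated stellate cells, passed as lower, with a log2 fold change of -0.99 (adjusted p = 0.0427 from edgeR), and none passed as higher. The list was mixed, with 7 negative and 3 positive log2 fold changes (Lrat, Reln and Ecm1) and a median of -0.15. Acta2, Col1a1 (-1.77) and Des (-0.50) were lower without overlap between the groups, as were 7.63% of all genes tested. The summed stellate level was 570 to 740 CPM in the AAV8-GFP group and 395 to 729 CPM in the AAV8-AGXT group, and no marker was at 0 in all mice. All 6 duct markers had negative log2 fold changes, from -1.62 to -0.91, and none passed. Their summed level was 226 to 679 CPM in AAV8-GFP mice, where mouse 315 was lowest, and 75.3 to 275 CPM in AAV8-AGXT mice, where mouse 308 was lowest. Lymphocyte markers summed to 10.2 to 13.9 CPM and 5.47 to 10.2 CPM, and 0 of 6 passed. Of 4 neutrophil markers 3 were tested and 0 passed, with summed levels of 20.3 to 32.3 CPM and 6.83 to 21.7 CPM. Mesothelial markers were scarce, at 1.72 to 10.7 CPM and 1.66 to 5.05 CPM over 5 genes, of which 2 were tested and 0 passed. The part of these cells in the ligand values was not tested, and in bulk liver fewer cells of a type and less RNA per cell cannot be told apart.

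Wnt2, with Wnt9b the central vein ligand, had the highest log2 fold change of the 10 genes. It was at 3.94 CPM in 303, 2.51 in 311, 2.77 in 314 and 2.51 in 315, against 7.53 in 308, 3.91 in 309, 5.14 in 316 and 3.59 in 319. The AAV8-GFP mouse 303 exceeded 2 AAV8-AGXT mice, and the other AAV8-GFP mice were below all of them. The means were 2.93 ± 0.684 and 5.04 ± 1.79 CPM (SD, n = 4 each), for a log2 fold change of 0.77 (standard error 0.27, 95% interval 0.16 to 1.38, adjusted p = 0.114 from edgeR). Without mouse 308 the log2 fold change was 0.51 (adjusted p = 0.26 from edgeR). Wnt2 (ENSMUSG00000010797) lies on chromosome 6 from 17988940 to 18030585, and none of its 31-base words occurs in another gene.

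Wnt9b was decided by 1 mouse. It was at 4.07 CPM in 308 and at 0.961, 1.23 and 0.944 CPM in 309, 316 and 319, whereas the AAV8-GFP mice lay between 0.949 and 1.59 CPM. The log2 fold change was 0.42 (standard error 0.48, 95% interval -0.66 to 1.49, adjusted p = 0.617 from edgeR) and turned to -0.35 (adjusted p = 0.526) without mouse 308. No difference was detectable for Wnt9b beyond this spread.

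Rspo3 (ENSMUSG00000019880, chromosome 10 from 29452416 to 29535867, minus strand), the R-spondin of the central vein, was at 8.51 CPM in 303, 6.61 in 311, 6.55 in 314 and 4.72 in 315, and at 9.73 in 308, 8.11 in 309, 8.53 in 316 and 3.59 in 319. The AAV8-AGXT mice thus held both the highest and the lowest value. The log2 fold change was 0.18 (standard error 0.30, 95% interval -0.48 to 0.83, adjusted p = 0.745 from edgeR). The antisense gene Gm48159, which shares 12.2% of the 31-base words of Rspo3, had no counts. Rspo1 (ENSMUSG00000028871, chromosome 4 from 124986430 to 125009099, plus strand) was scarce, with 2, 19, 13 and 1 counts in AAV8-GFP mice 303, 311, 314 and 315 and 4, 3, 4 and 2 counts in AAV8-AGXT mice 308, 309, 316 and 319. Without a filter on low counts its log2 fold change was -0.85 (adjusted p = 0.578 from edgeR), and at this depth no difference was detectable.

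Endothelial markers give a scale for the endothelial members. None of the 10 markers passed the test (log2 fold changes from -0.01 to 0.60), and their summed level was 195 to 313 CPM in the AAV8-GFP group and 191 to 393 CPM in the AAV8-AGXT group, highest in 308. Per 1000 CPM of these markers, a ratio chosen after the values were seen, Wnt2 was at 12.6, 10.5, 11.2 and 12.9 in 303, 311, 314 and 315. The ratio was 19.2, 12.4, 18.8 and 18.8 in 308, 309, 316 and 319. Relative to endothelial markers, 3 AAV8-AGXT mice were thus above all AAV8-GFP mice, with 308 close to 316 and 319, and mouse 309 lay within the range of the AAV8-GFP mice. The same ratio for Rspo3 was 24.2 to 27.5 in AAV8-GFP and 18.8 to 31.1 in AAV8-AGXT mice. Of 5 markers of central vein endothelium, Lhx6 passed as lower (log2 fold change -1.20, adjusted p = 0.0248 from edgeR) and the other 4 did not pass, with a summed level of 40 to 46.1 CPM and 22.3 to 41.1 CPM. Of these 5, 3 had negative and 2 positive log2 fold changes, and Lhx6 and Thbd (-0.30, adjusted p = 0.207 from edgeR) were lower without overlap between the groups. Such a separation was seen in 7.63% of all genes tested. Lhx6 overlaps the gene Gm27953 on the same strand, which leaves its count uncertain, and its use as a marker was not tested here.

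**Figure D2:**
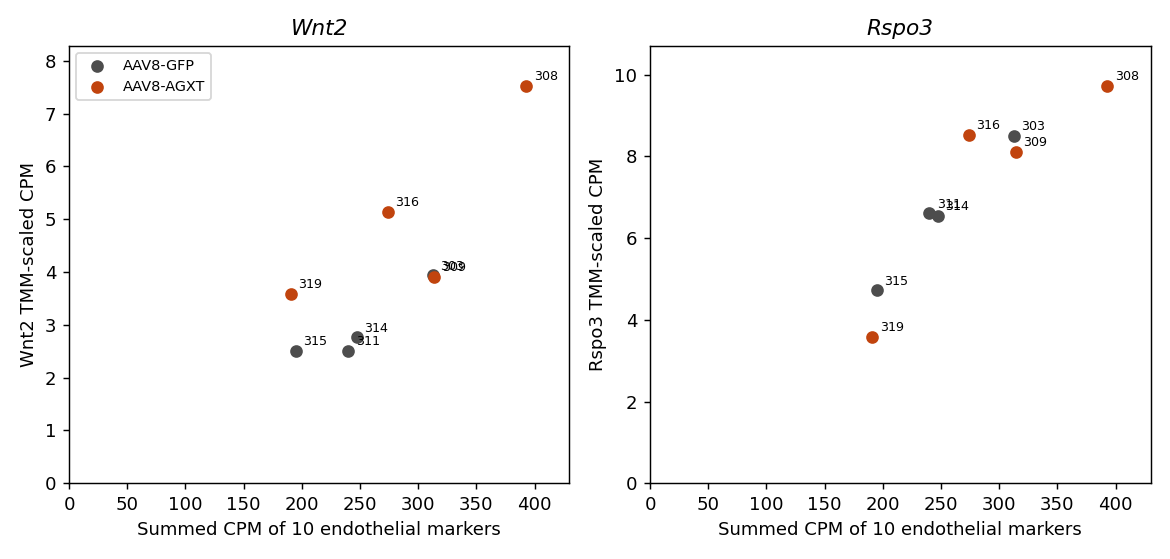
TMM-scaled CPM of Wnt2 (left) and Rspo3 (right) against the summed CPM of 10 endothelial markers, 1 point per mouse, labelled by animal number and coloured by treatment. For Rspo3 the points of both groups are interleaved, with a ratio of 18.8 to 31.1 per 1000 CPM of markers, and for Wnt2 the AAV8-AGXT mice 308, 316 and 319 lie above the AAV8-GFP mice at a given marker level.

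Znrf3 (ENSMUSG00000041961, chromosome 11 from 5276324 to 5444847, minus strand), a ligase that clears Frizzled, was the member with the smallest standard error and no overlap between the groups in the higher direction, which 8.93% of all genes tested shared. It was at 12.4 CPM in 303, 12.5 in 311, 8.95 in 314 and 10.9 in 315, and at 14.9 in 308, 16.0 in 309, 13.9 in 316 and 14.2 in 319. The means were 11.2 ± 1.68 and 14.8 ± 0.920 CPM (SD, n = 4 each), for a log2 fold change of 0.39 (standard error 0.13, 95% interval 0.09 to 0.69, adjusted p = 0.105 from edgeR). Its homologue Rnf43 (ENSMUSG00000034177, chromosome 11 from 87662722 to 87735539, plus strand), itself a known target of β-catenin, lay in a narrow range in AAV8-GFP mice, at 31.5, 32.6, 30.1 and 28.6 CPM in 303, 311, 314 and 315. In AAV8-AGXT mice it was at 47.3 CPM in 308, 47.8 in 316 and 55.2 in 319, all above the AAV8-GFP mice, and at 20.6 CPM in 309, below all of them. The log2 fold change was 0.48 (standard error 0.25, 95% interval -0.07 to 1.03, adjusted p = 0.25 from edgeR). Without mouse 309 it was 0.69 and passed (adjusted p = 0.0226 from edgeR), the only fit that passed a member as higher.

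Lgr4 (ENSMUSG00000050199, chromosome 2 from 109917647 to 110014257, plus strand), the broadly expressed receptor of R-spondins, was at 15.4 CPM in 303, 16.8 in 311, 20.8 in 314 and 22.3 in 315. The AAV8-AGXT mice were at 22.4 in 308, 28.7 in 309, 21.6 in 316 and 25.2 in 319. Only mouse 315 and mouse 316 overlapped between the groups. The log2 fold change was 0.38 (standard error 0.15, 95% interval 0.05 to 0.71, adjusted p = 0.143 from edgeR), from means of 18.8 ± 3.23 and 24.5 ± 3.22 CPM (SD, n = 4 each). Lgr5, the inducible relative of Lgr4 in pericentral hepatocytes, was at 5.02 ± 1.89 CPM and 9.74 ± 4.16 CPM (SD, n = 4 each), with overlapping groups (log2 fold change 0.95, adjusted p = 0.111 from edgeR and 0.0444 from DESeq2).

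**Figure D3:**
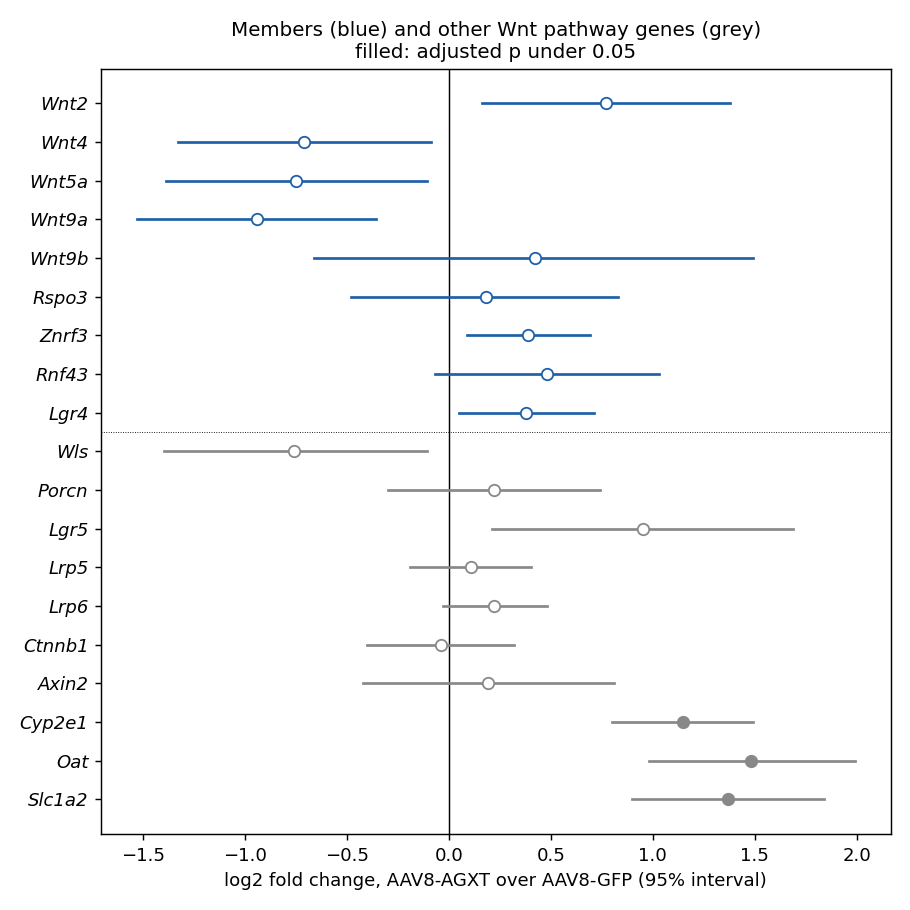
Log2 fold change of AAV8-AGXT over AAV8-GFP mice (x axis) with its 95% interval for the 9 tested members (blue) and 10 other Wnt pathway genes (grey), filled where the adjusted p of edgeR was under 0.05. All member points are open, with Wnt4, Wnt5a and Wnt9a left of 0, and the filled points are the pericentral genes Cyp2e1, Oat and Slc1a2.

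Per kilobase of exon, the scale on which genes can be compared, Rnf43 and Lgr4 had the highest means in both groups. In AAV8-GFP mice Rnf43 was at 4.68 ± 0.261 and Lgr4 at 3.20 ± 0.549 CPM per kilobase (SD, n = 4 each), with no overlap between them. Wnt4 and Rspo3 followed, both at a mean of 2.14 CPM per kilobase and both overlapping Lgr4 in range, then Znrf3 at 1.42 and Wnt2 at 1.30, and the ranges of each of these neighbours overlapped. Wnt9a at 0.672 was below Wnt2 in all mice and above Wnt5a at 0.369, and Wnt5a, Wnt9b at 0.294 and Rspo1 at 0.168 overlapped in turn. In AAV8-AGXT mice the order was Rnf43 at 6.51, Lgr4 at 4.16, Rspo3 at 2.42, Wnt2 at 2.23, Znrf3 at 1.87, Wnt4 at 1.31, Wnt9b at 0.399, Wnt9a at 0.349, Wnt5a at 0.218 and Rspo1 at 0.0976 CPM per kilobase. There the neighbours Lgr4 and Rspo3, Znrf3 and Wnt4, and Wnt9a and Wnt5a were separate in range, and the other neighbours overlapped. Wnt4 stood above Wnt2 in mean in AAV8-GFP mice and below it in AAV8-AGXT mice.

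**Figure D4:**
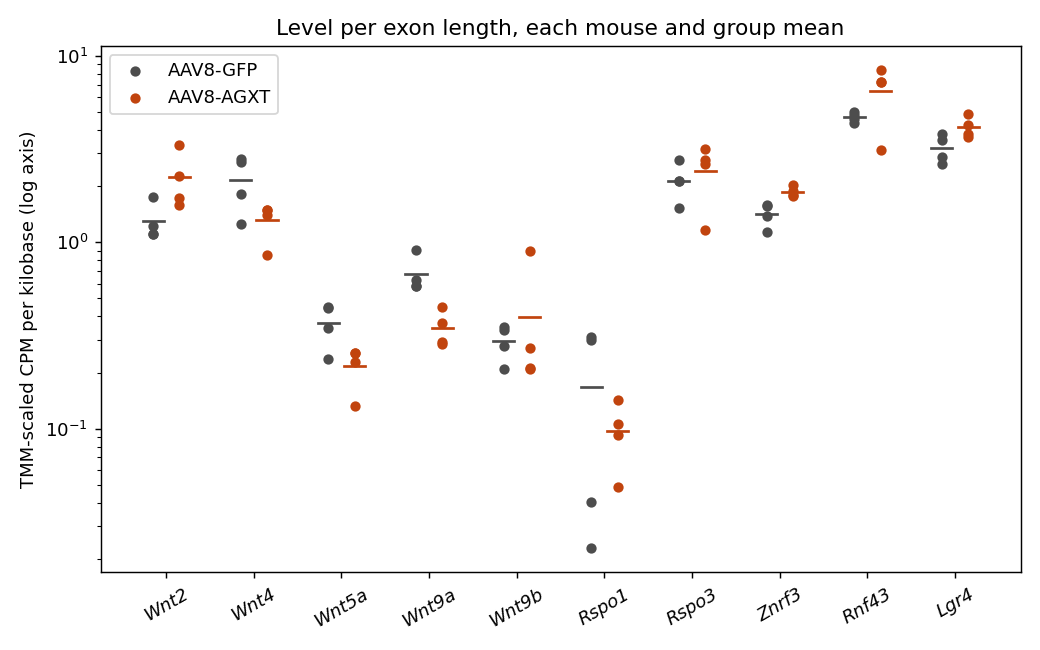
TMM-scaled CPM per kilobase of merged exons (log axis) of the 10 members, 1 point per mouse and a line at each group mean. Rnf43 and Lgr4 have the highest and Rspo1 the lowest mean in both groups, and the means of Wnt2 and Wnt4 exchange places between the groups.

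The other Wnt genes complete the ligand pool. Of 14 further Wnt genes, Wnt3, Wnt3a and Wnt8a had no counts in any mouse, and Wnt2b, Wnt5b and Wnt7b were the ones tested, none passing. Wnt5b, a close relative of Wnt5a, was at 5.40 ± 1.35 and 8.80 ± 2.82 CPM (SD, n = 4 each; log2 fold change 0.71, adjusted p = 0.116 from edgeR), the opposite sign to Wnt5a. The summed level of all 19 Wnt genes was 6.78 to 9.27 CPM per kilobase in AAV8-GFP and 7.70 to 9.01 in AAV8-AGXT mice. The AAV8-AGXT range lay inside that of AAV8-GFP only because of mouse 303, at 9.27. Mice 311, 314 and 315, at 7.39, 7 and 6.78, were below every AAV8-AGXT mouse in this sum, and the difference was not tested. Within this sum, Wnt4, Wnt5a and Wnt9a together made up 44.8, 48.9, 41.4 and 30.6% in 303, 311, 314 and 315, and 14.8, 28.5, 25 and 22.2% in 308, 309, 316 and 319. This share was lower in every AAV8-AGXT mouse, with 315 and 309 close to each other. It is a description without a test, since the 3 genes were grouped by the sign of their differences. Wnt2 made up 17 ± 1.62% and 26.7 ± 9.05%, and Wnt5b 27.1 ± 8% and 39.3 ± 10.4% (SD, n = 4 each).

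**Figure D5:**
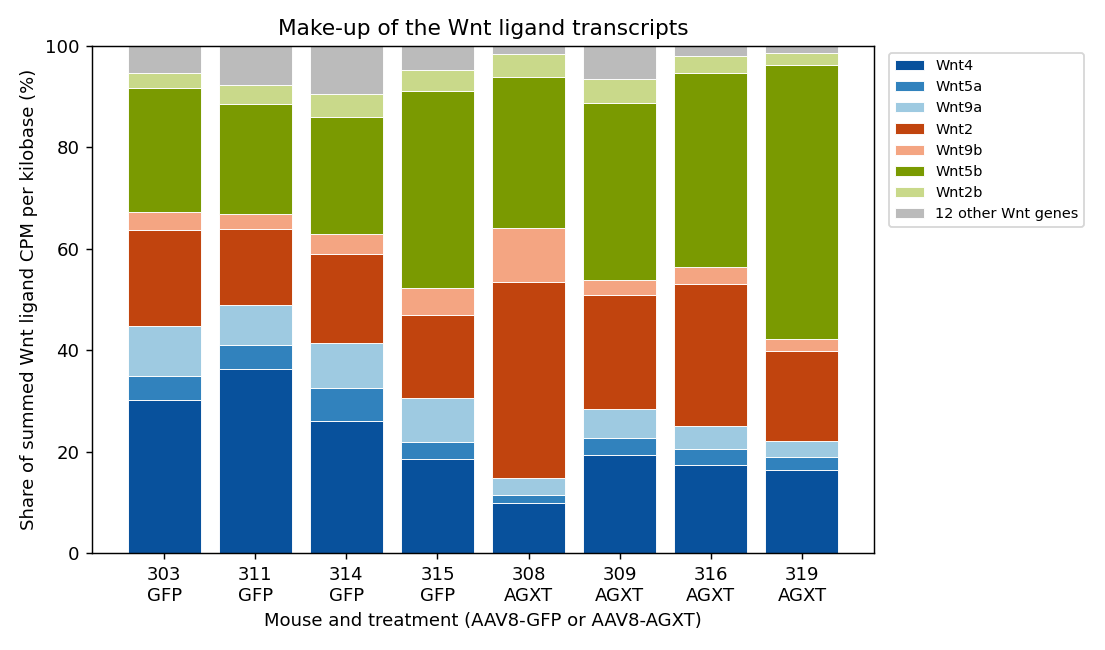
Share (%) of each Wnt gene in the summed CPM per kilobase of all 19 Wnt genes, 1 bar per mouse, AAV8-GFP on the left and AAV8-AGXT on the right. The blue segments (Wnt4, Wnt5a and Wnt9a) together fall between 30.6 and 48.9% in AAV8-GFP and between 14.8 and 28.5% in AAV8-AGXT mice.

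Around the ligands and the ligases, 80 further genes of the pathway were listed, of which 50 were tested. Of these 3 passed as higher and 0 as lower, and 14 had negative and 36 positive log2 fold changes, with a median of 0.12. Among all genes tested 2.45% passed as higher and 1.90% as lower, 47.7% were negative and the median was 0.018. The 3 pathway genes that passed were all pericentral hepatocyte genes. Oat, which feeds ornithine carbon into glutamate, was at 803 ± 185 and 2250 ± 535 CPM (SD, n = 4 each), for a log2 fold change of 1.48 with a standard error of 0.22 (adjusted p = 0.0246 from edgeR). Slc1a2, a glutamate transporter, was at 146 ± 34.7 and 379 ± 80.3 CPM (SD, n = 4 each), for a log2 fold change of 1.37 with a standard error of 0.21 (adjusted p = 0.0246 from edgeR). Cyp2e1, a cytochrome P450 that oxidises ethanol and fatty acids, passed with a log2 fold change of 1.15 and a standard error of 0.16 (adjusted p = 0.0198 from edgeR). All 3 lost the call without mouse 311, 314 or 319, where the largest adjusted p was 0.115 (edgeR). In those fits 2, 11 and 12 of all genes passed as higher, against 374 with all mice. Without mouse 311 the log2 fold changes of Oat, Slc1a2 and Cyp2e1 were 1.4, 1.28 and 1.1.

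Of the 12 genes of the pericentral list 9 did not pass, among them the feedback inhibitor Axin2, the most general readout of β-catenin, at 14.4 ± 5.46 and 16.5 ± 4.49 CPM (SD, n = 4 each; log2 fold change 0.19, 95% interval -0.42 to 0.81, adjusted p = 0.699 from edgeR). The median log2 fold change of the 12 was 0.41, and 11 were positive. Over all genes tested the median was 0.018 and 47.7% were negative. All 6 hepatocyte markers were positive too, with a median of 0.46, so positive values were not particular to the pericentral list. Glul, the glutamine synthetase of pericentral hepatocytes, was at 0.58 (adjusted p = 0.0846 from edgeR and 0.0179 from DESeq2). Cyp1a2, a pericentral cytochrome P450, was at 1.32 on the same log2 scale (adjusted p = 0.0845 from edgeR and 0.0114 from DESeq2). Axin2, Lgr5, Notum and Rnf43 were all lowest among the AAV8-AGXT mice in 309, at 10.3, 5.53, 23.1 and 20.6 CPM. So were most other genes of the pericentral list, namely Nkd1, Sp5, Tbx3, Glul, Oat, Slc1a2, Rhbg, Cyp1a2 and Lect2. Oat was at 1470 CPM and Slc1a2 at 266 CPM in 309. The hepatocyte markers Ttr, Apoa1 and Tat were also lowest there, at 3840, 12900 and 627 CPM. Of the other hepatocyte markers, Alb was lowest in 316, and Hnf4a and Cps1 were highest in 309, at 814 and 1650 CPM. Of the pericentral list, Tnfrsf19 was lowest in 308 and Cyp2e1 in 316.

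Genes for release, reception and relay of the ligands gave no call in edgeR. Wls, the carrier that brings Wnt proteins to the surface, was at 11.2 ± 2.73 and 6.61 ± 2.60 CPM (SD, n = 4 each; log2 fold change -0.76, adjusted p = 0.139 from edgeR), and Porcn, which attaches their lipid, at 4.01 ± 0.915 and 4.68 ± 1.09 CPM (log2 fold change 0.22, adjusted p = 0.594 from edgeR). Of 18 receptors 13 were tested and 0 passed in edgeR, with a median log2 fold change of 0.19. DESeq2 passed Lgr5, Fzd4 and Fzd8 as higher and Ptk7 as lower. Of 15248 genes it passed 1077 as higher and 1054 as lower. The co-receptors Lrp5 and Lrp6 had log2 fold changes of 0.11 and 0.22 (adjusted p = 0.645 and 0.24 from edgeR). Of 15 inhibitors, secreted or, as with Kremen1, in the membrane, 4 were tested and 0 passed, with a median of -0.42. Kremen1, at 0.30, was the only positive 1 of the 4. Notum was listed with Wls and Porcn instead (log2 fold change 0.62, adjusted p = 0.176 from edgeR). Of 16 cytoplasmic and nuclear genes 15 were tested and 0 passed in edgeR, with a median of 0.03. Pygo2, a nuclear cofactor of β-catenin, had a log2 fold change of -0.31 (adjusted p = 0.0843 from edgeR and 0.0207 from DESeq2). Ctnnb1, which encodes β-catenin, had a log2 fold change of -0.04 (95% interval -0.40 to 0.32, adjusted p = 0.899 from edgeR).

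Over the 8 mice the genes whose log2 CPM ran most like that of Wnt9a, of 15247 compared, were Lca5l, Hr and Tprn. Their Pearson r was 0.988, 0.981 and 0.981 and their Spearman rho 0.905, 0.976 and 0.929. These values describe the closest of many genes in mice that also share the group difference, and carry no test.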

How the data were processed

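The authors prepared stranded mRNA libraries from liver and, per the methods and labels, used Trimmomatic 0.35 for trimming, HISAT2 2.1.0.13 for alignment to GRCm38 and HTSeq for counting read pairs per Ensembl gene. The deposited values are raw counts per gene, whole numbers without normalization. The strand option and overlap mode of the counting are not given in the sources used here. HTSeq's tallies of pairs on no gene were left out of the library sizes. Symbols, positions and exon lengths came from GENCODE M21 on GRCm38, which matched 52489 of 52636 genes.

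All 8 mice entered 1 fit in edgeR 4.0.16 (R 4.3.3), with filterByExpr, TMM factors, the quasi-likelihood test, treatment alone in the model and p-values adjusted by Benjamini-Hochberg over 15248 genes. Standard errors were derived from the coefficient and the F statistic, and 95% intervals from the fit's degrees of freedom. A two-sided exact permutation test with 4 mice against 4 cannot go below p = 0.0286. The alternatives were DESeq2 1.42.0 (the test of the study), limma-voom (limma 3.58.1), robust estimation, 3 other scalings, 2 other count filters and each mouse left out. The fit was tested on simulated data. The common biological coefficient of variation was 23.3%. Counting error adds to it at every level, and most at low counts.

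The genes and lists were chosen with earlier results of these data known. Named were all 10 members, the targeted gene Agxt, each listed pathway gene with an adjusted p under 0.05, the genes Wls, Porcn, Lgr5, Axin2, Ctnnb1, Lrp5 and Lrp6 whatever their p, and the 3 genes most correlated with the member of smallest p. Beyond that rule, other pathway and marker genes are named as examples chosen after their values were seen. Promoter sequences are from RefSeq (GRCm38.p6).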

Additional observations from a re-analysis of the deposited data

Results flagged for a closer look

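Of 18 groups of 4 mice examined (9 tested members in 2 groups), 4 held a mouse whose gap to the nearest of the others exceeded 0.829 of the group's range in log2 CPM (prior count 2), a size that chance gives in about 1 group in 20. For Wnt4 in AAV8-AGXT mice the gap was 0.898 of the range, with mouse 308 lowest. For Wnt5a in AAV8-AGXT mice it was 0.83, again with mouse 308 lowest. For Wnt9a in AAV8-GFP mice it was 0.835, with mouse 303 highest. For Rnf43 in AAV8-AGXT mice it was 0.843, with mouse 309 lowest. Without mouse 308 the log2 fold changes were -0.57 for Wnt4 and -0.60 for Wnt5a (adjusted p = 0.26 and 0.243 from edgeR), and their negative sign remained.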

How the results depend on the processing

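No paired analysis was possible because the animal numbers of the groups are all different. The 3 negative signs (Wnt4, Wnt5a, Wnt9a) were kept in all 16 alternatives, as were the positive signs of Wnt2, Znrf3, Rnf43 and Lgr4. Wnt9b, between -0.35 (without mouse 308) and 0.64 with a mouse left out, and Rspo3, at -0.06 with total counts, reversed. With total counts, which shifted the median of all genes by -0.24, Porcn was at -0.03, Axin2 at -0.06, Lrp5 at -0.14 and Lrp6 at -0.01. Ctnnb1 lay between -0.19 and 0.06 with a mouse left out, at 0.04 without mouse 314 and 0.06 without mouse 308. Members called as higher numbered 0 to 1 with a mouse left out, the 1 being Rnf43 without mouse 309, and members called as lower numbered 0 in each such fit. Wnt9a was the 1 member called as lower by DESeq2 and with total counts. Pathway genes called as higher were 8 by DESeq2, 5 without a filter and 0 to 5 with a mouse left out, and 0 without mouse 311, 314 or 319. Those called as lower were 2 by DESeq2, 1 with total counts, 1 without a filter and 0 to 1 with a mouse left out (Ptk7 without mouse 315). Among all genes 1077 were higher and 1054 lower by DESeq2, and 144 higher and 857 lower with total counts. With a mouse left out, 2 to 379 were higher and 0 to 325 lower, fewest without mouse 311. The causes were not tested. Rspo1 could be fitted only without a filter. Low counts limit Wnt9a, Wnt9b and Wnt5a, with 14 to 89 counts per mouse.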

Other observations

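Wif1, a secreted inhibitor that binds Wnt ligands, did not pass the filter on low counts and was noticed after its values were seen. It had 3, 4, 2 and 0 counts in AAV8-GFP mice 303, 311, 314 and 315, and 9, 6, 18 and 25 counts in AAV8-AGXT mice 308, 309, 316 and 319. Scaled to depth, every AAV8-AGXT mouse lay above every AAV8-GFP mouse, at 0.361 to 1.18 against 0 to 0.122 CPM. The same separation was seen in 8.93% of the genes that did pass the filter. Without a filter the adjusted p of Wif1 was 0.0174 from edgeR over 28338 genes, of which 415 passed as higher. Its counts are near the floor in the AAV8-GFP mice.

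Among receptors, Fzd8 was at 9.77 ± 2.38 and 15.8 ± 2.43 CPM and Fzd4 at 19.8 ± 2.15 and 26.9 ± 3.01 CPM (SD, n = 4 each), both without overlap between the groups. Of the 13 receptors tested, Fzd7 and Ryk were also higher without overlap (log2 fold changes 0.72 and 0.20, adjusted p = 0.153 and 0.181 from edgeR) and Fzd3 was lower (-1.27, adjusted p = 0.0843), while 8.93% of all genes were separate in the higher and 7.63% in the lower direction. Fzd8 and Fzd4 did not pass in edgeR (adjusted p = 0.0638 and 0.0666) and passed in DESeq2 (adjusted p = 0.0124 and 0.0195). Ptk7, a co-receptor of non-canonical signals, was at 4.24 ± 1.74 and 1.59 ± 0.641 CPM (log2 fold change -1.41, adjusted p = 0.0714 from edgeR and 0.00943 from DESeq2).

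Macrophage markers, 8 of 8 tested and 0 passing, summed to 388 to 601 CPM in AAV8-GFP and 229 to 772 CPM in AAV8-AGXT mice. The sum covers opposite signs, with 4 negative and 4 positive log2 fold changes, from -1.42 for Trem2 to 2.49 for Timd4.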
